A study of Homo sapiens with 24 samples.

Results

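10 genes that carry iron into cells, store it, release it or set these steps were followed in SW872 cells, an established human liposarcoma line. The genes are TF, TFRC, STEAP3, SLC11A2 and SLC39A14 (uptake), FTH1, FTL and NCOA4 (storage and its turnover), SLC40A1 (release) and IREB2 (regulation). They were looked up by Ensembl identifier, and 10 of 10 were found among the 60279 genes of each count table. The list was chosen by function, and no cut-off on measured values is recorded for it, but it was proposed with results of these same libraries known. The test values below therefore describe the size of each difference against the spread between libraries, and are not independent evidence.

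The 24 libraries hold poly(A) RNA of cells that stably carried a retroviral construct, in 8 groups of 3. Cells with the empty vector (EV), TAZ-CAMTA1, TAZ4SA, YAP-TFE3, YAP5SA or TFE3 were collected 48 h after they had reached confluence. CAMTA1 cells were collected before confluence, and so was a second empty vector set whose title calls it sub-confluent (EVsub). TAZ and YAP are coactivators held back by the Hippo kinases, TAZ4SA and YAP5SA carry alanines in place of serines that these kinases phosphorylate, and TAZ-CAMTA1 and YAP-TFE3 are fusion proteins found in epithelioid haemangioendothelioma. Each line was a pool of cells kept by drug selection, and each construct came from a viral vector. The study calls the replicates biological triplicates and reports that they came from separate transductions. EV is the control of 5 groups, so the comparisons with EV share its 3 libraries and their errors. In such bulk RNA, fewer cells that express a gene and less RNA per cell cannot be told apart.

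Iron circulates bound to transferrin, the product of TF, which enters cells with the transferrin receptor TFRC. In the endosome STEAP3 reduces the iron and SLC11A2 (DMT1) moves it to the cytosol, while SLC39A14 (ZIP14) takes up iron that is not bound to transferrin, along with zinc and manganese. Surplus iron is held in ferritin, a shell of heavy (FTH1) and light (FTL) chains, and NCOA4 delivers ferritin to the lysosome for breakdown. SLC40A1 (ferroportin) exports iron, and the protein of IREB2 (IRP2) binds iron responsive elements, short hairpins in the messengers of several of these genes, when iron is scarce. TFE3 belongs to a family of factors known for lysosomal and autophagy genes.

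The hairpins that tie several of these genes together are shown first, because they act on translation and messenger stability, which counts of messenger RNA see only in part. The canonical transcripts of GENCODE were searched for C, any 5 bases, CAGTG, a base other than G, and 5 bases able to pair with the first 5, with G-T pairs allowed. Of 20046 canonical coding transcripts 190 (0.948%) held a match, 11 of them (0.0549%) in the 5′ UTR and 98 (0.489%) in the 3′ UTR. In the 5′ UTR, where binding blocks translation, FTH1 has it at chr11:61967574-61967602 (minus strand), FTL at chr19:48965335-48965363 (plus strand) and SLC40A1 at chr2:189580661-189580689 (minus strand). TFRC has 4 in its 3′ UTR, where binding protects the messenger, at chr3:196050979-196051007, chr3:196050575-196050603, chr3:196050510-196050538 and chr3:196050463-196050491 (minus strand), printed in that order. All coordinates are GRCh38, each site is 29 bases long, and capitals mark the unpaired C and the loop.
FTH1: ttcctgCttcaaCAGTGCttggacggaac
FTL: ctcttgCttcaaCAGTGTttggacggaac
SLC40A1: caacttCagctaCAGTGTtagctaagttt
TFRC-1: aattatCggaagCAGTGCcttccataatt
TFRC-2: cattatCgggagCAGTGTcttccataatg
TFRC-3: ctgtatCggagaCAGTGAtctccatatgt
TFRC-4: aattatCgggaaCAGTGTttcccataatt

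The FTH1 and FTL sites share 26 of 29 bases, whereas SLC40A1 shares 14 of 29 with FTL and 13 of 29 with FTH1. The TF transcript also held a match in its 3′ UTR, and the transcripts of the other members held none, which says only that these letters are not in the models searched. 3 of the 11 genes with a match in the 5′ UTR are members, and the others include ALAS2, which makes the first enzyme of haem synthesis in red cell precursors.

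Depth and labels were checked before the levels were read. Totals ran from 19700277 to 35287476 counts per library, and mitochondrial genes took 3.20% to 6.36% of them. CAMTA1, YAP1 and TFE3 were each counted higher in the libraries of their own full-length constructs than in the matching empty vector. WWTR1, the gene of TAZ, went against its label, with 134 ± 0.538 CPM in the libraries with the TAZ4SA label and 204 ± 20.3 CPM in EV (SD, n = 3; log2FC -0.60, SE 0.08, adjusted p = 9.77e-07), so these are called the TAZ4SA-labelled libraries throughout. WWTR1 was also lower than in EV in YAP5SA (68.7 ± 1.66 CPM, log2FC -1.57, adjusted p = 1.70e-13) and in YAP-TFE3 (126 ± 3.17 CPM, log2FC -0.70, adjusted p = 9.98e-08). In TAZ-CAMTA1, which carries part of TAZ, it was not called (181 ± 2.15 CPM). The other parts of the fusions were higher than in EV: CAMTA1 in TAZ-CAMTA1 (log2FC 2.75, adjusted p = 2.33e-16) and TFE3 in YAP-TFE3 (1.25, adjusted p = 7.23e-10). TFE3 also rose in YAP5SA and the TAZ4SA-labelled libraries, by less (0.64 and 0.54). YAP1 was called higher in YAP-TFE3 (0.26, with overlap) and in TAZ-CAMTA1 (0.40). The paper shows Flag-tagged TAZ4SA protein in SW872 cells by western blot. The cause of the WWTR1 levels was not tested. CPM are counts scaled to library size after TMM normalization. Here and below, log2FC is the fitted log2 fold change with its standard error (SE), and adjusted p comes from the edgeR quasi-likelihood test with Benjamini-Hochberg adjustment over all genes tested, with triplicates as n. Intervals of counting error are not given, and the p-values measure the spread between libraries. Of 8 mesenchymal markers 8 had a mean of at least 1 CPM, and of 7 adipocyte markers 3 did, with ADIPOQ, FABP4, PLIN1 and LEP below it. Markers of cells known for iron handling were low: 4 of 5 hepatocyte markers, 4 of 5 macrophage markers and 5 of 5 erythroid markers had a mean under 1 CPM over the libraries. The summed levels of these 3 lists over the groups ranged from 1.21 to 8.02, from 1.65 to 2.93 and from 0.119 to 0.597 CPM. Adipocyte markers summed to between 69.9 CPM in the TAZ4SA-labelled libraries and 347 CPM in YAP-TFE3, and mesenchymal markers to between 3557 CPM in the TAZ4SA-labelled libraries and 7134 CPM in TFE3. Epithelial markers summed to between 190 CPM in TFE3 and 3571 CPM in YAP5SA, nearly all KRT8 and KRT18, and endothelial markers to between 10.7 CPM in YAP5SA and 99.2 CPM in TAZ-CAMTA1. Their part in the differences below was not tested.

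**Figure D1:**
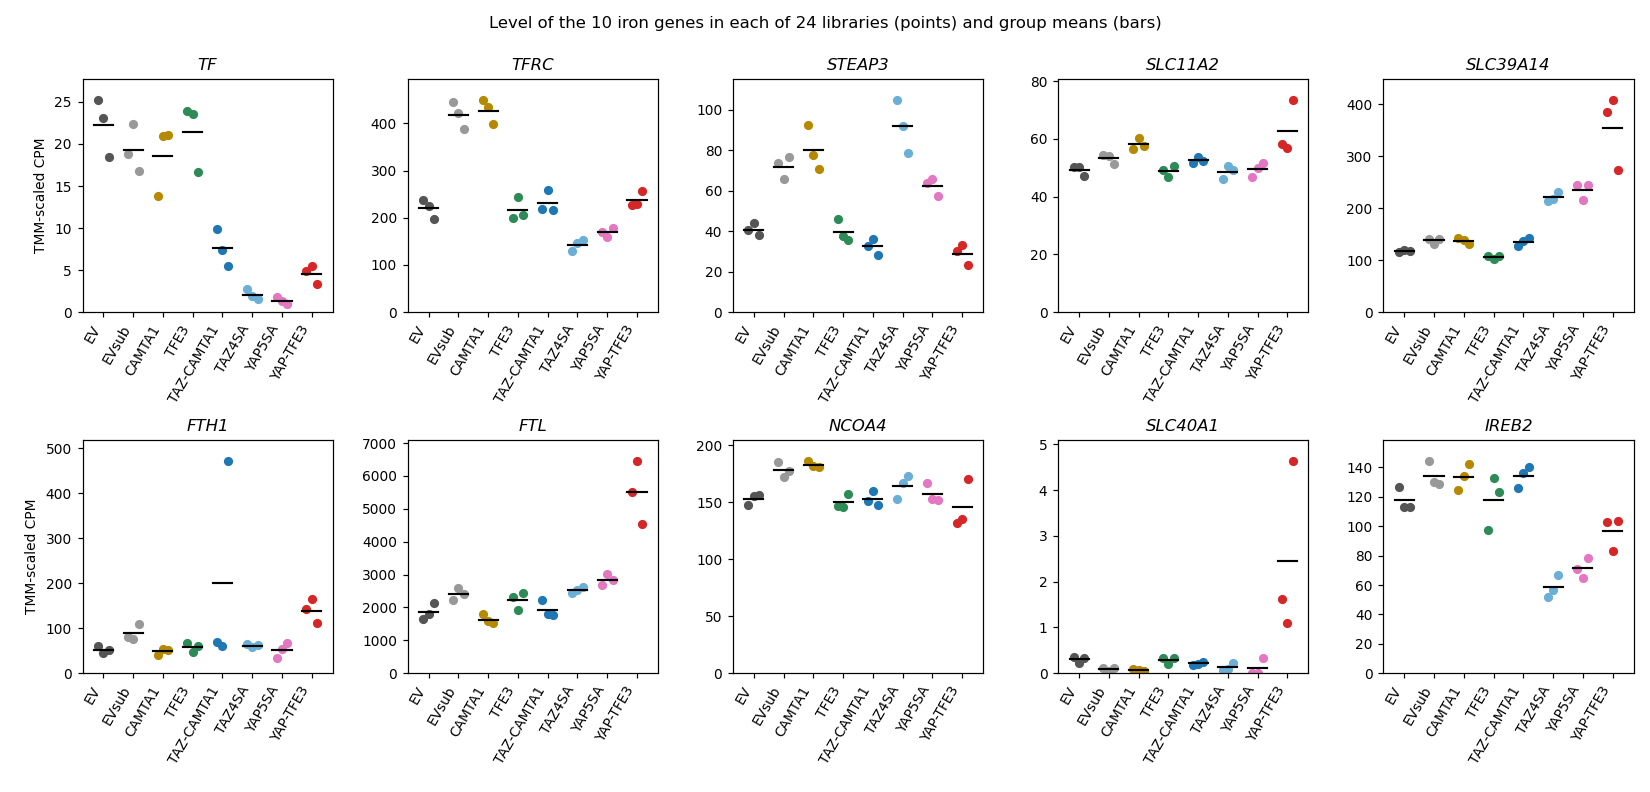
Level of each iron gene (vertical axis, TMM-scaled CPM, each panel from 0) in the 8 groups, with a point per library and a bar at the group mean. FTL, SLC40A1 and SLC39A14 stand highest in YAP-TFE3, TF stands between 0.964 and 1.75 CPM in YAP5SA, and the lone FTH1 point at 470 CPM is TAZ-CAMTA1 replicate 3.

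By count of calls, more members differed from EV in YAP-TFE3 cells than in any other group. The calls of FTH1 and IREB2 there were lost in some alternative fits, as given below. Some single members changed more in other groups, such as TF in YAP5SA (log2FC -4.06 against -2.29 in YAP-TFE3). In YAP-TFE3 cells 5 of 10 members were called higher and 3 lower by the edgeR quasi-likelihood test (adjusted p under 0.05), against 25.6% higher and 22.6% lower of all 19997 genes tested. The storage genes FTL and FTH1, the exporter SLC40A1 and the importers SLC39A14 and SLC11A2 rose, and TF, STEAP3 and IREB2 fell. In YAP5SA cells 3 members were higher and 3 lower (22.7% and 21.6% of all genes), and in the TAZ4SA-labelled libraries likewise 3 and 3 (25.1% and 24.2%). The members called in these 2 comparisons were the same: SLC39A14, STEAP3 and FTL rose, and TF, TFRC and IREB2 fell. TAZ-CAMTA1 cells had 1 member higher and 1 lower (3.55% and 1.44%), namely FTH1, on the strength of 1 library, and TF. All 10 members passed the filter of a mean of 5 counts, but SLC40A1 did so only through YAP-TFE3, with a mean of 14.5 counts over all libraries and 4.86 without that group, so that its difference there was built into its passing.

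Full-length TFE3 left no member called (0 higher and 0 lower, against 0.035% and 0% of all genes). In this comparison edgeR gave 1 member an unadjusted p under 0.05, FTL, beside 757 of all 19997 genes, and DESeq2 called 0 members. CAMTA1 against EVsub had 0 members higher and 1 lower (1.26% and 0.57%), which was FTL. EVsub against EV, a comparison of culture density as far as the titles tell, had 4 higher and 0 lower (19.8% and 17.1%): TFRC, STEAP3, FTL and NCOA4. The median log2 fold change over the 10 members was 0.23 for YAP-TFE3 against EV, where that of all genes was -0.01, and 0.23 for EVsub against EV, where that of all genes was -0.02. For YAP5SA, the TAZ4SA-labelled libraries, TAZ-CAMTA1 and TFE3 against EV it was -0.01, 0.04, 0.06 and -0.03, close to the medians of all genes of -0.04, -0.03, 0.00 and 0.00. Under total-count scaling the calls for YAP-TFE3 against EV went from 5126 higher and 4519 lower to 4319 and 5538, those for YAP5SA from 4534 and 4325 to 3135 and 6840, those for the TAZ4SA-labelled libraries from 5013 and 4835 to 3355 and 7318, and those for EVsub from 3956 and 3412 to 3109 and 4286. The median of all genes shifted to -0.10, -0.22 and -0.23 in the first 3 of these. For CAMTA1 against EVsub the split went from 252 and 114 to 222 and 169, for YAP-TFE3 against TFE3 from 5089 and 4503 to 4221 and 5702, for YAP-TFE3 against YAP5SA from 5618 and 4867 to 6562 and 4044, and for TAZ-CAMTA1 against the TAZ4SA-labelled libraries from 5376 and 5354 to 7486 and 3695. No called member changed sign under this scaling. A median near that of all genes went together with large changes of single members in both directions.

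**Figure D2:**
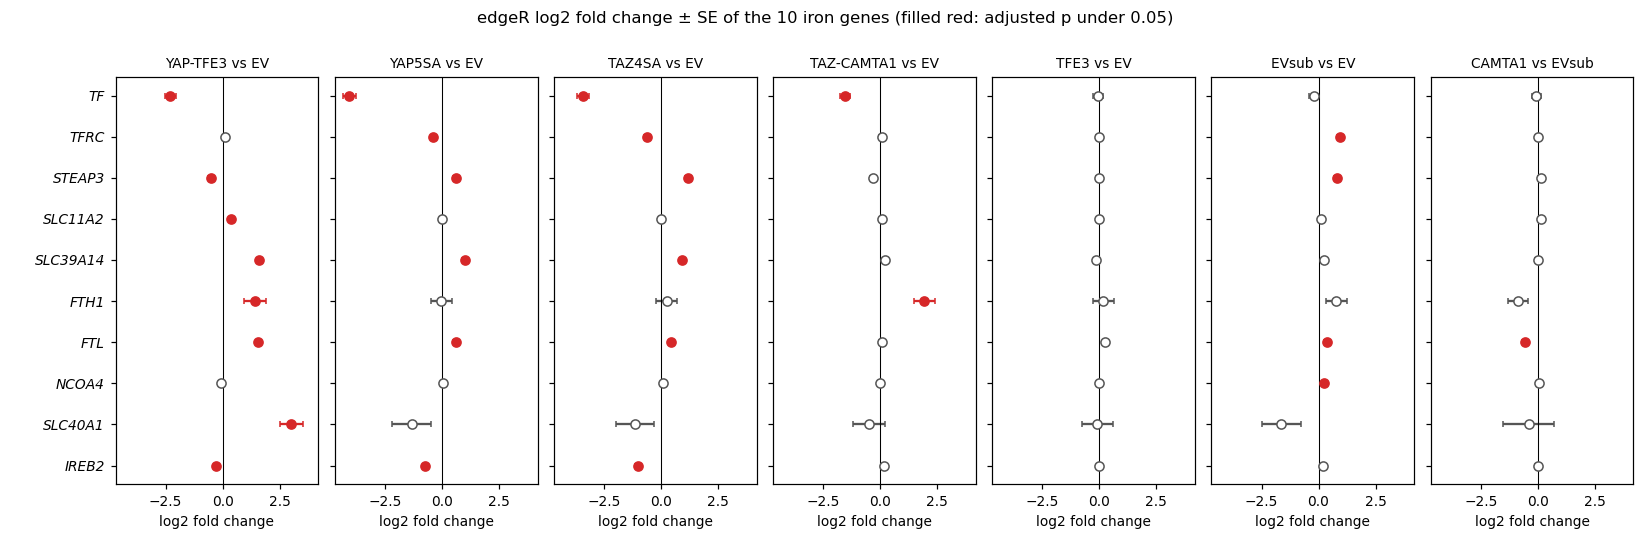
edgeR log2 fold change with its standard error (horizontal axis) for each iron gene in 7 comparisons with an empty vector control, filled red where the adjusted p was under 0.05. TF lies to the left in 4 panels, the TAZ4SA-labelled libraries and YAP5SA share their red points, and no point is red for TFE3.

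Ferritin light chain was the most abundant member, and YAP-TFE3 cells held about 3 times as much of its messenger as EV. FTL (ENSG00000087086, chromosome 19, 48965309 to 48966879, plus strand) was counted at 5527, 6442 and 4531 CPM in the YAP-TFE3 libraries and at 1636, 1798 and 2122 CPM in EV. The lowest YAP-TFE3 library stood above the highest library of any other group, 3017 CPM in YAP5SA. The means were 5500 ± 956 and 1852 ± 247 CPM (SD, n = 3), a fold of 2.97 (log2FC 1.57, SE 0.13, adjusted p = 3.46e-10). YAP5SA, with 2674, 3017 and 2821 CPM, and the TAZ4SA-labelled libraries, with 2449, 2544 and 2609 CPM, also stood above EV without overlap, by log2FC of 0.62 (adjusted p = 0.000264) and 0.45 (adjusted p = 0.00389). Under total-count scaling the latter was 0.26 (adjusted p = 0.0698).

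FTL differed less clearly elsewhere. EVsub libraries held 2237, 2594 and 2406 CPM, above EV (log2FC 0.38, SE 0.12, adjusted p = 0.0177), but without EV replicate 1, EV replicate 2 or EVsub replicate 2 the adjusted p was 0.0915, 0.0592 or 0.0711. CAMTA1 libraries held 1800, 1573 and 1526 CPM, below EVsub (log2FC -0.56, SE 0.12, adjusted p = 0.0128). That call was lost without CAMTA1 replicate 2, CAMTA1 replicate 3 or EVsub replicate 2 (adjusted p = 0.0829, 0.0557 and 0.0905). TFE3, with 2331, 1924 and 2434 CPM, and TAZ-CAMTA1, with 2223, 1808 and 1772 CPM, overlapped EV.

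Ferritin heavy chain also rose in YAP-TFE3, with less certainty. FTH1 (ENSG00000167996, chromosome 11, 61959718 to 61967634, minus strand) was counted at 142, 165 and 111 CPM in YAP-TFE3 and at 59.6, 44.4 and 52.2 CPM in EV, with no overlap (log2FC 1.42, SE 0.46, adjusted p = 0.0138). Without EV replicate 2 the adjusted p was 0.0539. In TAZ-CAMTA1 the libraries held 68.4, 59.6 and 470 CPM, of which the first 2 lay near or within the EV range and the third held 15300 counts. Over the 10575 genes with a mean log2 CPM above 3, FTH1 had the largest excess of replicate 3 over replicates 1 and 2, at 2.88 on the log2 scale, and CCDC85B came next at 1.88. The edgeR call for TAZ-CAMTA1 against EV (log2FC 1.94, SE 0.47, adjusted p = 0.0140) turned into 0.30 (adjusted p = 0.649) without that library, and was lost also without EV replicate 2 or 3 (adjusted p = 0.0827 and 0.0565). EVsub libraries held 81.2, 75.6 and 110 CPM, all above EV, but missed the threshold (adjusted p = 0.195), and YAP5SA, TFE3, CAMTA1 and the TAZ4SA-labelled libraries lay between 32.7 and 67.4 CPM.

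FTH1 has many processed copies, gene remnants that arose from its messenger and lie elsewhere in the genome, and the methods name both Hisat2 alignment and Salmon with tximport, without saying which made these counts, so the treatment of reads with several alignments in them is not known. The files held 25 genes named FTH1P and a number, 19 of them with counts. Their sum took 13.4% to 23.96% of the reads on FTH1 and copies together, except in TAZ-CAMTA1 replicate 3, where it took 2.41%. In that library the copies held 11.6 CPM, against 14.0 and 13.2 CPM in the other TAZ-CAMTA1 libraries, so the copies did not rise with FTH1 there. In YAP-TFE3 they did: the copies summed to 25.01 ± 4.73 CPM against 10.1 ± 0.782 CPM in EV (SD, n = 3), and FTH1P2, FTH1P8, FTH1P7 and FTH1P23 were each called higher, by log2FC of 1.36, 1.60, 1.42 and 0.85 (adjusted p = 6.06e-08, 1.53e-05, 3.27e-05 and 0.0145). With the copies added to the parent, FTH1 in YAP-TFE3 against EV had a log2FC of 1.403 (adjusted p = 0.00820).

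Other genes near FTH1 and the light chain bear on the same counts. BEST1 overlaps FTH1 on the opposite strand and held 0.676 to 12.1 CPM. It was higher in YAP-TFE3, YAP5SA and the TAZ4SA-labelled libraries than in EV (log2FC 2.48, 2.61 and 2.65), while FTH1 was called higher in YAP-TFE3 alone of these groups. Copies of FTL took 0.01999% to 0.118% of its reads with copies, and those of NCOA4 at most 0.0833%. FTH1 stood far below FTL in these files: per kilobase of the canonical transcript EV held 43.3 ± 6.33 CPM of FTH1 and 2126 ± 284 CPM of FTL, and the part of multiply aligned reads in that difference in level was not tested.

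**Figure D3:**
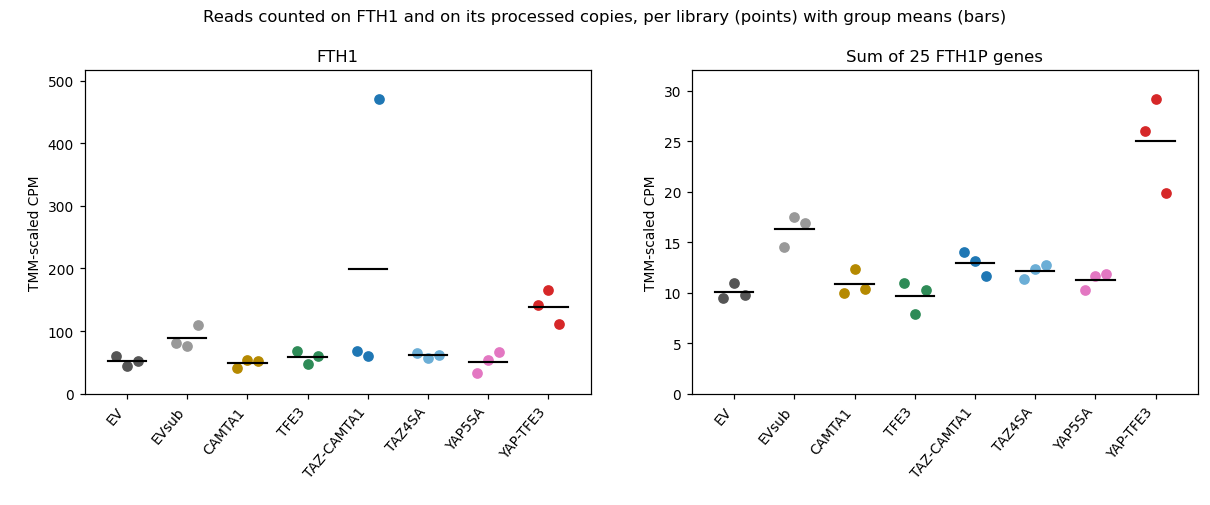
CPM on FTH1 (left) and on the sum of its 25 named processed copies (right), with a point per library and a bar at the group mean. Both are highest in YAP-TFE3 apart from TAZ-CAMTA1 replicate 3, which stands at 470 CPM on the left and 11.6 CPM on the right.

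NCOA4, the receptor that hands ferritin to the autophagosome, was the steadiest member with SLC11A2. NCOA4 (ENSG00000266412, chromosome 10, 46005088 to 46030623, minus strand) ranged from 132 to 186 CPM over the 24 libraries. In YAP-TFE3 it was counted at 132, 135 and 170 CPM and in EV at 148, 156 and 156 CPM, an overlap, and the log2 fold change was -0.07 (SE 0.08, adjusted p = 0.490). EVsub libraries held 186, 172 and 177 CPM, above EV (log2FC 0.22, SE 0.08, adjusted p = 0.0408), a call that was lost in 5 of the 24 fits that each left out a library and under total-count scaling (0.15, adjusted p = 0.143), with no filter beyond 1 count (adjusted p = 0.0800) and with a filter of 50 counts (adjusted p = 0.0675). Those 5 left out EV replicate 1, 2 or 3 or EVsub replicate 1 or 3, with adjusted p between 0.0716 and 0.139.

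The exporter ferroportin was near the limit of counting in 7 groups and above it in YAP-TFE3. SLC40A1 (ENSG00000138449, chromosome 2, 189560590 to 189583758, minus strand) had 50, 35 and 160 counts in YAP-TFE3 and 10, 6 and 7 counts in EV, that is 1.62, 1.098 and 4.63 CPM against 0.345, 0.228 and 0.339 CPM. The other groups held 11 counts or fewer per library: 11, 7 and 10 in TFE3, 5, 6 and 8 in TAZ-CAMTA1, 2, 2 and 6 in the TAZ4SA-labelled libraries, 0, 0 and 8 in YAP5SA, 3, 1 and 4 in EVsub, and 3, 2 and 1 in CAMTA1. The YAP-TFE3 libraries overlapped none of these, but differed widely from one another. The log2 fold change against EV was 3.01 (SE 0.51, adjusted p = 2.91e-05), and 2.15 (adjusted p = 0.000226) without YAP-TFE3 replicate 3. A count of 3 or fewer per library was taken as the floor, so for CAMTA1 against EVsub no fold is given.

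The other release genes are the ferroxidases HEPH and CP. HEPH (hephaestin, a membrane ferroxidase that works with ferroportin) rose in YAP-TFE3, at 2.24 ± 0.573 CPM against 0.844 ± 0.277 CPM in EV (log2FC 1.42, SE 0.36, adjusted p = 0.00202). It fell in YAP5SA and the TAZ4SA-labelled libraries (log2FC -2.08 and -2.03, adjusted p = 0.00340 and 0.00280). These groups held only 3 to 7 and 0 to 11 counts of HEPH per library, against 14 to 27 in EV. CP (ceruloplasmin, a secreted ferroxidase) fell in YAP5SA and the TAZ4SA-labelled libraries too (log2FC -2.16 and -2.41, adjusted p = 1.71e-06 and 3.60e-07), and for YAP-TFE3 it had a log2FC of -0.50 (adjusted p = 0.0859). HEPH and CP were also called lower in EVsub than in EV, without any of these constructs. In EVsub HEPH stood at 0.278 ± 0.0865 CPM, and CP at 1.54 ± 0.160 CPM against 2.69 ± 0.465 CPM in EV. HAMP, the gene of the hormone hepcidin that removes ferroportin from the membrane, had at most 1 count in a library and was not tested.

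Transferrin itself was the member with the largest fall. TF (ENSG00000091513, chromosome 3, 133746040 to 133796641, plus strand), mostly known as a product of hepatocytes, was counted at 25.2, 23.04 and 18.5 CPM in EV and at 1.75, 1.33 and 0.964 CPM in YAP5SA. The YAP5SA libraries held 24 to 37 counts each, and the fall was 16.7-fold (log2FC -4.06, SE 0.28, adjusted p = 2.60e-11). The libraries labelled TAZ4SA held 2.81, 1.97 and 1.504 CPM (log2FC -3.41, SE 0.26, adjusted p = 1.54e-10). YAP-TFE3, at 4.94, 5.43 and 3.32 CPM, and TAZ-CAMTA1, at 9.85, 7.43 and 5.50 CPM, lay between these and EV without overlap (log2FC -2.29 and -1.56, adjusted p = 1.85e-08 and 6.44e-05). EVsub, CAMTA1 and TFE3 libraries held 13.9 to 23.9 CPM and overlapped EV. TF shares its strand and part of its span with SRPRB, which held 61.4 to 96.7 CPM and for YAP5SA against EV had a log2FC of -0.12 (adjusted p = 0.235).

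The transferrin receptor stood highest in the 2 groups collected before confluence. TFRC (ENSG00000072274, chromosome 3, 196012511 to 196082153, minus strand) was counted at 445, 422 and 388 CPM in EVsub and 449, 435 and 398 CPM in CAMTA1, against 238, 226 and 198 CPM in EV. The 6 sub-confluent libraries all lay above the 18 confluent ones. The log2FC of EVsub against EV was 0.92 (SE 0.10, adjusted p = 9.74e-07), and that of CAMTA1 against EVsub was 0.03 (adjusted p = 0.964). In the TAZ4SA-labelled libraries, at 129, 147 and 153 CPM, and in YAP5SA, at 169, 159 and 178 CPM, TFRC fell by 0.63 and 0.39 on the log2 scale (adjusted p = 1.19e-05 and 0.00249). YAP-TFE3 libraries, at 227, 230 and 257 CPM, overlapped EV (log2FC 0.11, SE 0.10, adjusted p = 0.382).

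Genes of dividing cells moved with culture density as well, and their values are given because TFRC is known to be high in dividing cells. The sum of MKI67, TOP2A, CCNB1, CDK1, PCNA, MCM2, RRM2 and TYMS was 1701 ± 111 CPM in EV, 2912 ± 115 CPM in EVsub and 3040 ± 316 CPM in CAMTA1 (SD, n = 3). For EVsub against EV 7 of these 8 genes were called higher. In YAP-TFE3 the sum was 693 ± 97.0 CPM and 8 of 8 were called lower than in EV, whereas TFRC did not fall there. The part of cell division in the level of TFRC was not tested.

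STEAP3, the endosomal reductase, parted the 2 kinds of construct. STEAP3 (ENSG00000115107, chromosome 2, 119223831 to 119265652, plus strand) was counted at 105, 92.1 and 78.6 CPM in the TAZ4SA-labelled libraries and 63.8, 66.1 and 57.7 CPM in YAP5SA, all above 40.4, 43.9 and 38.0 CPM in EV (log2FC 1.17 and 0.61, adjusted p = 1.11e-07 and 0.000557). The fusions lay below EV: 30.4, 33.1 and 23.6 CPM in YAP-TFE3 (log2FC -0.49, SE 0.13, adjusted p = 0.00362) and 32.9, 36.2 and 28.3 CPM in TAZ-CAMTA1, where the difference missed the threshold (-0.33, adjusted p = 0.175). EVsub, at 73.6, 65.7 and 76.5 CPM, was above EV (log2FC 0.82, adjusted p = 6.00e-05), and CAMTA1 overlapped EVsub.

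SLC39A14 and SLC11A2, the membrane carriers, both rose in YAP-TFE3, by very different amounts. SLC39A14 (ENSG00000104635, chromosome 8, 22367278 to 22434129, plus strand) was counted at 385, 408 and 273 CPM in YAP-TFE3 and 115, 119 and 118 CPM in EV (log2FC 1.60, SE 0.10, adjusted p = 7.10e-12). YAP5SA, at 245, 216 and 245 CPM, and the TAZ4SA-labelled libraries, at 214, 219 and 231 CPM, stood between them (log2FC 1.01 and 0.92, adjusted p = 1.58e-08 and 6.84e-08), and the other groups lay between 103 and 143 CPM. SLC11A2 (ENSG00000110911, chromosome 12, 50979401 to 51028566, minus strand) was counted at 58.1, 56.9 and 73.3 CPM in YAP-TFE3 and 50.2, 50.2 and 46.997 CPM in EV (log2FC 0.35, SE 0.08, adjusted p = 0.00109). In the other groups it stayed between 46.1 and 60.1 CPM and was not called.

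IREB2, the gene of the iron sensor IRP2, fell wherever YAP or TAZ was hyperactive by label. IREB2 (ENSG00000136381, chromosome 15, 78437431 to 78501453, plus strand) was counted at 51.9, 56.6 and 67.1 CPM in the TAZ4SA-labelled libraries and 70.8, 64.9 and 78.6 CPM in YAP5SA, against 126, 113 and 113 CPM in EV (log2FC -1.01 and -0.72, adjusted p = 1.10e-07 and 1.46e-05). YAP-TFE3 libraries held 103, 83.0 and 104 CPM, below EV (log2FC -0.29, SE 0.11, adjusted p = 0.0384). Without EV replicate 1, EV replicate 2 or YAP-TFE3 replicate 2 that adjusted p was 0.142, 0.0513 or 0.220, and it was 0.0581 with no filter beyond 1 count and 0.0579 in a fit of the 2 groups alone. The remaining groups ranged from 97.3 to 144 CPM and were not called against their control.

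ACO1, which codes for the sister sensor IRP1 and is a cytosolic aconitase when it carries an iron-sulphur cluster, went the other way. It rose to 255 ± 20.5 CPM in the TAZ4SA-labelled libraries and 221 ± 19.4 CPM in YAP5SA from 114 ± 7.85 CPM in EV (log2FC 1.16 and 0.95, adjusted p = 6.27e-11 and 1.92e-09), and to 146 ± 8.44 CPM in YAP-TFE3 (0.36, adjusted p = 0.00104). FBXL5, the ligase subunit that marks IRP2 for breakdown when iron is plentiful, rose in YAP5SA and YAP-TFE3 by 0.31 and 0.30 on the log2 scale (adjusted p = 0.00648 and 0.00760). For the TAZ4SA-labelled libraries its log2 fold change was 0.18 (adjusted p = 0.0951). ACO1 and FBXL5 were also called higher in EVsub than in EV, without any of these constructs. In EVsub ACO1 stood at 145 ± 1.92 CPM, close to its level in YAP-TFE3. The part of culture density in the levels of ACO1 and FBXL5 was not tested.

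The fusions were then compared with the proteins they derive from, the question the study put to the whole transcriptome. YAP-TFE3 against YAP5SA had 8 of 10 members higher and 1 lower (28.1% and 24.3% of all genes). SLC40A1 (log2FC 4.33), TF (1.77), FTH1 (1.45), FTL (0.95), SLC39A14 (0.59), TFRC (0.49), IREB2 (0.43) and SLC11A2 (0.34) were higher, STEAP3 was lower (-1.11), and NCOA4 was not called (-0.11, adjusted p = 0.274). The called members had adjusted p of 0.0112 or less, but that of FTH1 was 0.0637 without YAP5SA replicate 1 and that of SLC11A2 was 0.0652 in a fit of the 2 groups alone. TF, TFRC and IREB2 were called lower in YAP5SA than in EV. In YAP-TFE3 against EV, TF and IREB2 were lower too (log2FC -2.29 and -0.29) and TFRC was not called (0.11). SLC40A1 passed the filter only through YAP-TFE3, so its place in this count was built into its passing. It had 0 counts in 2 YAP5SA libraries. Without YAP5SA replicate 3, its 8 counts gone, the level in YAP-TFE3 was 19.0-fold the floor of 3 counts per library, taken over library totals without TMM scaling. Without YAP-TFE3 replicate 3 the log2 fold change was 3.48 (adjusted p = 6.75e-06).

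Against full-length TFE3, YAP-TFE3 had 5 members higher and 3 lower (25.4% and 22.5%). These were the members called against EV, with like sizes: SLC40A1 3.09 (2.24 without YAP-TFE3 replicate 3), SLC39A14 1.73, FTL 1.30, FTH1 1.25 and SLC11A2 0.36 were higher, and TF (-2.23), STEAP3 (-0.46) and IREB2 (-0.29) were lower on the log2 scale. The place of SLC40A1 in this count was again built into its passing the filter. The calls of FTH1 (adjusted p = 0.0273) and IREB2 (0.0386) were each lost in fits without a library. For FTH1 these left out TFE3 replicate 2 or 3 or YAP-TFE3 replicate 1 or 2, with adjusted p of 0.0917, 0.0590, 0.0507 and 0.0822. For IREB2, whose libraries overlapped, they left out TFE3 replicate 2 or 3 or YAP-TFE3 replicate 2 (0.211, 0.110 and 0.223), and for STEAP3 (0.00632) TFE3 replicate 1 (0.0534).

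TAZ-CAMTA1 against the TAZ4SA-labelled libraries had 4 members higher and 3 lower (26.9% and 26.8%). TF (1.85), IREB2 (1.195) and TFRC (0.69) were higher and STEAP3 (-1.50), SLC39A14 (-0.71) and FTL (-0.39) lower on the log2 scale, with adjusted p of 0.0100 or less. The fourth gene called higher was FTH1 (1.70, adjusted p = 0.00350), which stood at 0.02 (adjusted p = 0.940) without TAZ-CAMTA1 replicate 3. The FTL difference was -0.20 (adjusted p = 0.165) under total-count scaling. Each of these members but FTH1 stood in TAZ-CAMTA1 nearer to EV than in the TAZ4SA-labelled libraries.

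The order of the groups differed between members. TF ran from EV, TFE3, EVsub and CAMTA1, whose libraries overlapped each neighbour, down over TAZ-CAMTA1 (7.59 ± 2.18 CPM), YAP-TFE3 (4.56 ± 1.102 CPM) and the TAZ4SA-labelled libraries (2.10 ± 0.662 CPM), each apart from the group before it, to YAP5SA (1.35 ± 0.391 CPM), which overlapped the latter. SLC39A14 ran from YAP-TFE3 (355 ± 72.2 CPM) over YAP5SA and the TAZ4SA-labelled libraries, which overlapped, to EV (117 ± 1.99 CPM) and TFE3 (107 ± 3.29 CPM), which did not. NCOA4 libraries overlapped between each pair of neighbours in the order, and the ratio of its highest to its lowest group mean was 1.25, against 16.5 for TF, 3.37 for FTL and 3.32 for SLC39A14. The widest range of group means, 4.06 on the log2 CPM scale, was that of SLC40A1 and rests on YAP-TFE3.

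Per kilobase of canonical transcript, the order of genes within EV was FTL far ahead (2126 CPM per kb), then NCOA4 (44.2), TFRC (44.02), FTH1 (43.3), SLC39A14 (25.1), IREB2 (18.6), SLC11A2 (11.9), STEAP3 (9.57) and SLC40A1 (0.0914). In YAP-TFE3 the levels of FTL, FTH1 and SLC39A14 per kilobase were 6315, 116 and 76.1 CPM. TF is left out, because its canonical model of 20166 bases includes a 3′ end far longer than the coding part.

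**Figure D4:**
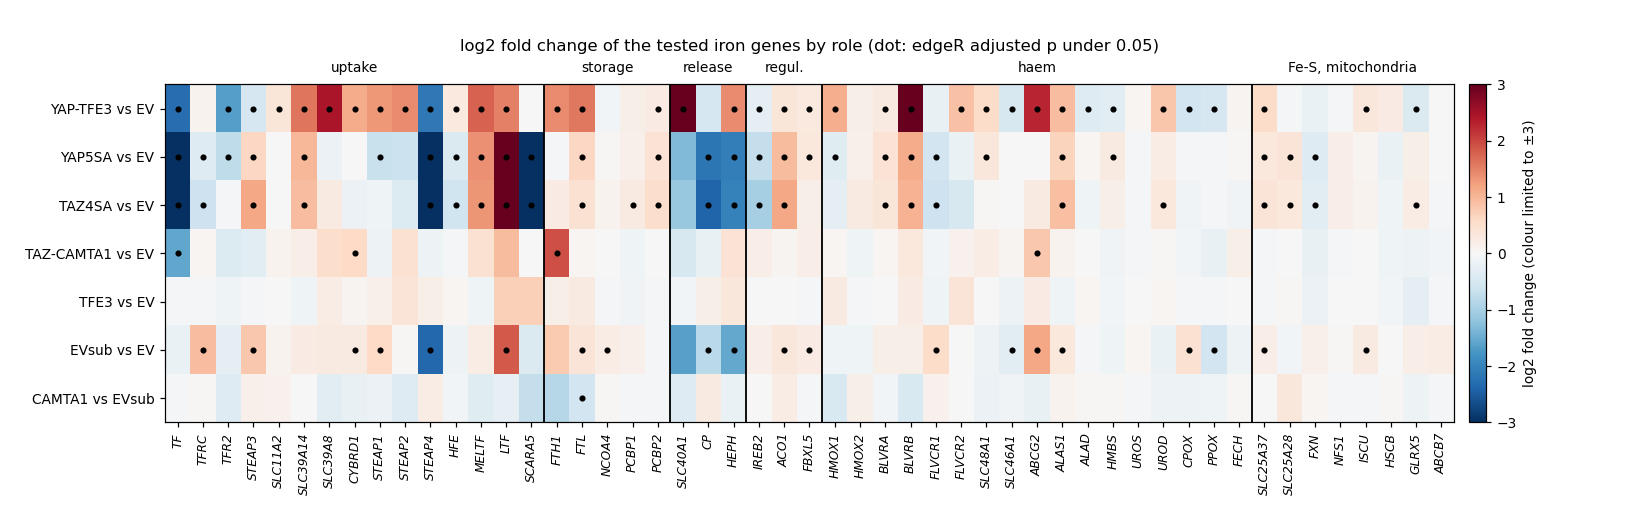
edgeR log2 fold change (colour, limited to ±3) of the tested iron genes, members and others, in 7 comparisons with an empty vector control, grouped by role, with a dot where the adjusted p was under 0.05. Dots are dense for YAP-TFE3, YAP5SA and the TAZ4SA-labelled libraries and absent for TFE3, and BLVRB and SLC40A1 are deep red in the YAP-TFE3 row only.

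Another 65 iron genes were listed for comparison, of which 58 were tested. HJV, HAMP, TMPRSS6, FTMT, CD163, HP and ALAS2 had means under 5 counts. For YAP-TFE3 against EV 28 of the 58 were higher and 10 lower, beside 25.6% and 22.6% of all genes, and their median log2 fold change was 0.25, where that of all genes was -0.01. The counts were 18 higher and 13 lower for YAP5SA (22.7% and 21.6% of all genes), 17 and 9 for the TAZ4SA-labelled libraries (25.1% and 24.2%), 15 and 8 for EVsub (19.8% and 17.1%), 2 and 0 for TAZ-CAMTA1 (3.55% and 1.44%), and 0 and 0 for TFE3 against EV (0.035% and 0%) and for CAMTA1 against EVsub (1.26% and 0.57%). The medians of these comparisons, in that order, were 0.06, 0.03, 0.02, 0.02, 0.01 and -0.03 on the log2 scale, where those of all genes were -0.04, -0.03, -0.02, 0.00, 0.00 and -0.01. For the fusions against YAP5SA, TFE3 and the TAZ4SA-labelled libraries the counts were 24 and 15 (28.1% and 24.3%), 27 and 12 (25.4% and 22.5%), and 17 and 20 (26.9% and 26.8%). These are counts, and nothing particular to the list was tested.

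Of the other iron genes, LCN2, BLVRB and SLC39A8 had the largest rises in YAP-TFE3 against EV, followed by ABCG2 (log2FC 2.28), BMP6 (2.08) and MELTF (1.77). BLVRB (biliverdin reductase B, which acts on a product of haem breakdown) rose to 288 ± 26.2 CPM from 26.4 ± 3.69 CPM in EV (log2FC 3.45, SE 0.13, adjusted p = 4.26e-16). HMOX1 (haem oxygenase, which frees iron from haem) rose to 93.4 ± 12.1 CPM from 43.8 ± 3.43 CPM (1.09, SE 0.14, adjusted p = 7.17e-07). SLC39A8, the closest relative of SLC39A14, rose to 33.0 ± 7.66 CPM from 6.11 ± 0.421 CPM (2.44, SE 0.19, adjusted p = 1.64e-10). STEAP2, a reductase related to STEAP3, rose to 3.01 ± 0.548 CPM from 1.14 ± 0.127 CPM (1.41, SE 0.31, adjusted p = 0.000632). LCN2 (lipocalin 2, which binds iron carriers of bacteria) had 0 counts in EV and 2.64 ± 0.638 CPM in YAP-TFE3, at least 20.7-fold higher than the floor of 3 counts per library. STEAP4, TFR2 (a second transferrin receptor) and MON1A fell (-2.14, -1.66 and -0.81, adjusted p = 0.00530, 2.22e-06 and 6.40e-06).

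In YAP5SA and the TAZ4SA-labelled libraries LCN2 and STEAP4 were again among the genes with the largest changes, next to LTF, SCARA5 and CP. LTF (lactoferrin, a relative of transferrin) rose to 4.13 ± 1.25 and 3.90 ± 1.34 CPM from 0.205 ± 0.0522 CPM in EV (log2FC 4.26 and 4.18, adjusted p = 1.86e-09 and 2.58e-09). MELTF (melanotransferrin) rose by 1.38 in YAP5SA and BMP6, a ligand that switches on hepcidin in the liver, by 1.68 in the TAZ4SA-labelled libraries (adjusted p = 1.09e-06 and 3.32e-06). In YAP-TFE3 against EV both rose as well (1.77 and 2.08, adjusted p = 1.69e-08 and 1.04e-07). SCARA5 (a ferritin receptor) fell in YAP5SA and the TAZ4SA-labelled libraries (-3.06 and -3.19, adjusted p = 0.000100 and 4.87e-05). It held 1 to 4 counts per library in each of these groups, near the floor, against 15 to 38 in EV. STEAP4 fell in the same groups, in YAP5SA to counts at the floor. Its level in EV was 9.46-fold that floor, taken over library totals without TMM scaling. LCN2 was at least 8.52-fold and 6.02-fold higher than the floor in YAP5SA and the TAZ4SA-labelled libraries. In TAZ-CAMTA1 the 2 genes called were ABCG2, a haem and drug exporter (0.81, adjusted p = 0.00407), and CYBRD1, a ferric reductase (0.59, adjusted p = 0.000382). In EVsub, LTF, ABCG2 and EPAS1 (HIF-2 alpha) were highest by fold (1.84, 1.15 and 0.64) and STEAP4, HEPH and LRP1 lowest (-2.36, -1.53 and -1.01).

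By role, with members included, YAP-TFE3 against EV had 9 of 15 tested uptake genes higher and 4 lower, 3 of 5 storage genes higher and 0 lower, 2 of 3 release genes higher, and 8 of 17 haem genes higher and 5 lower. Of 8 genes for iron-sulphur clusters and mitochondrial iron 2 were higher and 1 lower. The shares of all genes called higher and lower were 25.6% and 22.6% in this comparison, 22.7% and 21.6% for YAP5SA, and 25.1% and 24.2% for the TAZ4SA-labelled libraries. In YAP5SA the uptake genes stood at 4 higher and 7 lower and the release genes at 0 higher and 2 lower, in the TAZ4SA-labelled libraries at 4 and 5, and 0 and 2. The median log2FC of the uptake genes was 0.35, -0.39 and -0.12 in these 3 comparisons, where that of all genes was -0.01, -0.04 and -0.03. The lists hold the members, so their counts repeat the values above in part. The release genes called higher in YAP-TFE3 were SLC40A1 and HEPH. SLC40A1 passed the filter only through YAP-TFE3, so its place in that count was built into its passing.

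For the 4 members with the widest range of group means, the genes most like them over the 24 libraries were picked by Pearson correlation of log2 CPM among 14652 protein-coding genes, as a description. The libraries share groups, so that any gene set apart in the same groups scores high. SLC40A1 was most like FAM149A (0.914), CPVL (0.909) and SULT1C2 (0.906), which all peak in YAP-TFE3: SULT1C2 stood at 72.2 CPM there and at 2.58 CPM in EV. TF was most like FRMD4A (0.967), TRIB2 (0.963) and GNG2 (0.958), with TRIB2 at 225 CPM in EV and 46.0 CPM in YAP5SA. FTL was most like BLVRB (0.951), GAS2L2 (0.948) and SQSTM1 (0.946), and SQSTM1, an autophagy receptor, stood at 333 CPM in YAP-TFE3 and 117 CPM in EV. GAS2L2 held 1.05 CPM in YAP-TFE3 and 0.162 CPM or less in each other group. It thus passed the filter of 5 counts only through YAP-TFE3, as SLC40A1 did, so its likeness to FTL was in part built in. SLC39A14 was most like NIBAN1 (0.977), PPP1R15A (0.974) and SLC31A1 (0.973), the last a copper importer with 215 CPM in YAP-TFE3, 187 CPM in YAP5SA, 173 CPM in the TAZ4SA-labelled libraries and 91.9 CPM in EV.

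Promoters in RefSeq (GRCh38.p14, 250 bases before to 50 after each start) were searched on both strands for the letters that the factors behind the constructs are known to bind. Entries were found for 8 members, 14 entries in all, and FTH1 and SLC39A14 were not matched. CACGTG, the core of the sites of TFE3 and its relatives, was in none of the 14 and in 7.26% of all 35116 promoters, and TCACGTG, which contains it, in none and in 3.71%. GGAATG, the core of TEAD sites, through which YAP and TAZ act, was in 1 entry, of TF, and in 14.03% of all promoters. TGACNNNGC, the core of sites of NRF2, known for ferritin and haem genes, was in 1 entry, of NCOA4, and in 13.3%. The TF entry is shown because TF had the largest fall where YAP was hyperactive: the 100 bases before its start, at chr3:133746293-133746392 (plus strand), with the match in capitals, 37 bases before the start.
TF upstream: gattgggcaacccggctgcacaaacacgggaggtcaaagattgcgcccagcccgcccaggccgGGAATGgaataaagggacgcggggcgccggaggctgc
A match is a description of letters and was not tied to binding here.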

How the data were processed

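RNA of 24 libraries (SW872 cells, 8 groups of 3) was measured by stranded poly(A) sequencing. The authors aligned reads to hg38 (Ensembl release 78) with Hisat2, and separately used Salmon and tximport for gene-level values. They deposited raw whole-number counts per gene, 1 table per library. Which route made these tables, and how strand and reads with several alignments were treated in them, is not given in the sources used here, which bears on FTH1 and its copies and on overlapping genes. Groups were read from sample titles.

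From the counts, genes averaging 5 counts or more were fitted in 1 model over all 24 libraries with 1 mean per group, TMM scaling and the edgeR (4.0.16, R 4.3.3) quasi-likelihood test, two-sided, with Benjamini-Hochberg adjustment and a threshold of 0.05. An exact permutation test of 3 against 3 libraries cannot go below p = 0.10, so none was used. The fit was tested on simulated counts for YAP-TFE3 against EV only, with the same spread set for every gene. It thus does not cover genes with a library far apart, such as FTH1, or with a wide spread, such as SLC40A1. Replicates carry only a number, and depth limits the precision of low genes such as SLC40A1, where 3 counts per library served as the floor (counting error only). The floor was taken over library totals without TMM scaling, so folds against the floor of YAP5SA are approximate. Positions and transcripts came from GENCODE 44 (GRCh38), in which 56104 of the gene IDs were found, and promoters from RefSeq. No protein table was used here.

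The members and the other lists were chosen with earlier results of these data known. Other iron genes were named by the 3 with the largest change called in each direction per comparison, with ACO1, FBXL5, SLC39A8, STEAP2, CP and HMOX1 for the steps they share with members. HEPH, outside EVsub against EV, and ABCG2, BMP6 and MELTF in YAP-TFE3 were named after their values were seen. Alternatives were DESeq2 (1.42.0) and its size factors, total-count scaling, filters of 1 and 50 counts, a fit of 2 groups, a replicate block, a test against an absolute log2 fold change of 1, copies added to parents, and each library left out.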

Additional observations from a re-analysis of the deposited data

How the results depend on the processing

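Of the 51 differences of members that passed the threshold, none reversed under any alternative run. With settings other than leaving out a library, 409 values kept their side of the threshold and 47 lost it, 37 of these under the test against an absolute log2 fold change of 1. That test left 0 members for TAZ-CAMTA1 against EV, CAMTA1 against EVsub and EVsub against EV, 1 for YAP5SA and for the TAZ4SA-labelled libraries, 4 for YAP-TFE3 against EV and against TFE3, and 2 for YAP-TFE3 against YAP5SA and TAZ-CAMTA1 against the TAZ4SA-labelled libraries. A fit of the 2 groups alone gave 1 member for TAZ-CAMTA1 against EV, 2 for CAMTA1 against EVsub and 7 for EVsub against EV, and no filter beyond 1 count gave 2 for CAMTA1 against EVsub. Leaving out each library in turn gave 1 to 2 members for TAZ-CAMTA1 against EV, 0 to 2 for CAMTA1 against EVsub and 2 to 6 for EVsub against EV, and 28 single values lost the threshold while 1196 kept it. Without the filter, the adjusted p of FTH1 in TAZ-CAMTA1 fell to 1.26e-66 although it rests on 1 library, and the cause was not tested. Among all genes, no filter gave 652 calls for CAMTA1 against EVsub and 40 for TFE3 against EV (main 366 and 7), the fit of 2 groups 663 and 2, and the test against an absolute log2 fold change of 1 gave 28 and 0, with 49, 1506, 1385, 1441 and 80 for TAZ-CAMTA1, the TAZ4SA-labelled libraries, YAP-TFE3, YAP5SA and EVsub against EV, and 1574, 1788 and 1313 for TAZ-CAMTA1 against the TAZ4SA-labelled libraries and YAP-TFE3 against YAP5SA and TFE3.

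With a replicate block, EVsub against EV had 5 members called (main 4), and the other comparisons kept their counts (2, 6, 8, 6, 0, 1, 7, 9 and 8). Whether the replicate numbers pair the samples is not given, and the data differed between comparisons. The mean correlation of same-numbered deviations ran from -0.0962 to 0.129 over the 10 comparisons. For YAP-TFE3 against EV the correlations were 0.216, 0.0292 and 0.104, and 6 of 6 libraries deviated most like their own number. This number was 5 of 6 for EVsub against EV and for TAZ-CAMTA1 against the TAZ4SA-labelled libraries, and 0 to 4 of 6 in the other comparisons. Such values are a hint from the data and not from the design. Depth limits SLC40A1, with 11 counts or fewer per library outside YAP-TFE3.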
